A study of Mus musculus with 30 samples.

Results

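Messenger RNA levels in the liver were compared with those in the kidney of the same wild-type (WT) strain. The comparison used 3 liver and 3 kidney libraries, which are 6 of the 30 libraries of a study on Ctcf, a gene for a zinc-finger protein that binds DNA. They were chosen by tissue and genotype label, and all genes entered. The study sequenced RNA from 5 tissues of adult C57BL/6 mice (liver, kidney, spleen, muscle and brain), 3 WT and 3 Ctcf+/- libraries per tissue. The WT mice are labelled as controls and carry no listed allele or treatment. The Ctcf+/- mice, which have lost 1 copy of the gene in every cell, served here only to repeat the organ comparison in other libraries, and the WT brain, muscle and spleen only to ask which genes liver and kidney have in common against other tissues. Each library came from a piece of whole organ, so that fewer cells of a type and less RNA per cell cannot be told apart.

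Liver and kidney are both built around epithelial cells rich in mitochondria and peroxisomes, the hepatocyte and the proximal tubule cell. Both organs can release newly made glucose into the blood, oxidise fatty acids, break down amino acids, and conjugate and export foreign compounds. The hepatocyte also secretes plasma proteins and bile and stores glycogen, whereas the tubule recovers solutes from the filtered blood and secretes others into the urine.

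The 3 kidney libraries held 92695290, 91697266 and 98539767 counts and the 3 liver libraries 69994667, 63652651 and 57569223. The 10 top genes of each library held between them 22.9 to 24.5% of all counts in liver and 12.2 to 12.8% in kidney. Levels are given as CPM, counts scaled to a common library total, after TMM scaling, which fits the libraries to the bulk of genes, in the order of replicates 1, 2 and 3. FPKM, the same level per kilobase of exon, is used where 2 genes are compared. A library with 0 counts of a gene still allows up to 3 counts, and that floor covers counting error only. Fold changes are log2, liver over kidney, so that positive values are higher in liver, with the standard error (SE) of the fit. The word called is used for genes with an adjusted p under 0.05 in edgeR's quasi-likelihood test with Benjamini-Hochberg adjustment over all 18310 genes tested.

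Of the 18310 genes, 11800 (64.4%) were called. Liver was higher for 5476 (29.9%) and kidney for 6324 (34.5%). Because most genes passed, a size was added. Differences of at least 4-fold (a log2 fold change of 2 or more in size) were called for 1696 genes in favour of liver (9.26%) and 3082 in favour of kidney (16.8%). In 1057 of the 3082 every liver library held 3 counts or fewer, and in 183 of the 1696 every kidney library did, with the kidney libraries sequenced deeper. At the other end, 6269 genes (34.2%) were balanced, which means that the 95% interval of the log2 fold change lay inside -1 to 1, less than a 2-fold difference either way. Of these, 2290 were also called, with small differences that the replicates resolved. The liver groups and kidney groups did not overlap for 71.6% of genes.

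These directions depend on how the libraries are scaled. Total-count scaling, which leaves the abundant liver genes in the denominator, moved every log2 fold change down by a median of 1.02, and the calls became 2092 higher in liver and 12744 higher in kidney. Of the called genes, 2354 changed sign, but none of the 4778 4-fold genes did. Differences of under 1 log2 unit in favour of liver are therefore given below with that reservation. Balance depends on the scaling as well, and 3212 genes were balanced with total counts. Of genes given below as balanced, Slc47a1 (-1.67), Ghr (-1.30), Rida (-1.26), Cyp51 (-1.24), Fth1 (-1.24), Fmo1 (-1.13) and Gclm (-1.09), among others, then lay beyond the 2-fold margin.

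**Figure D1:**
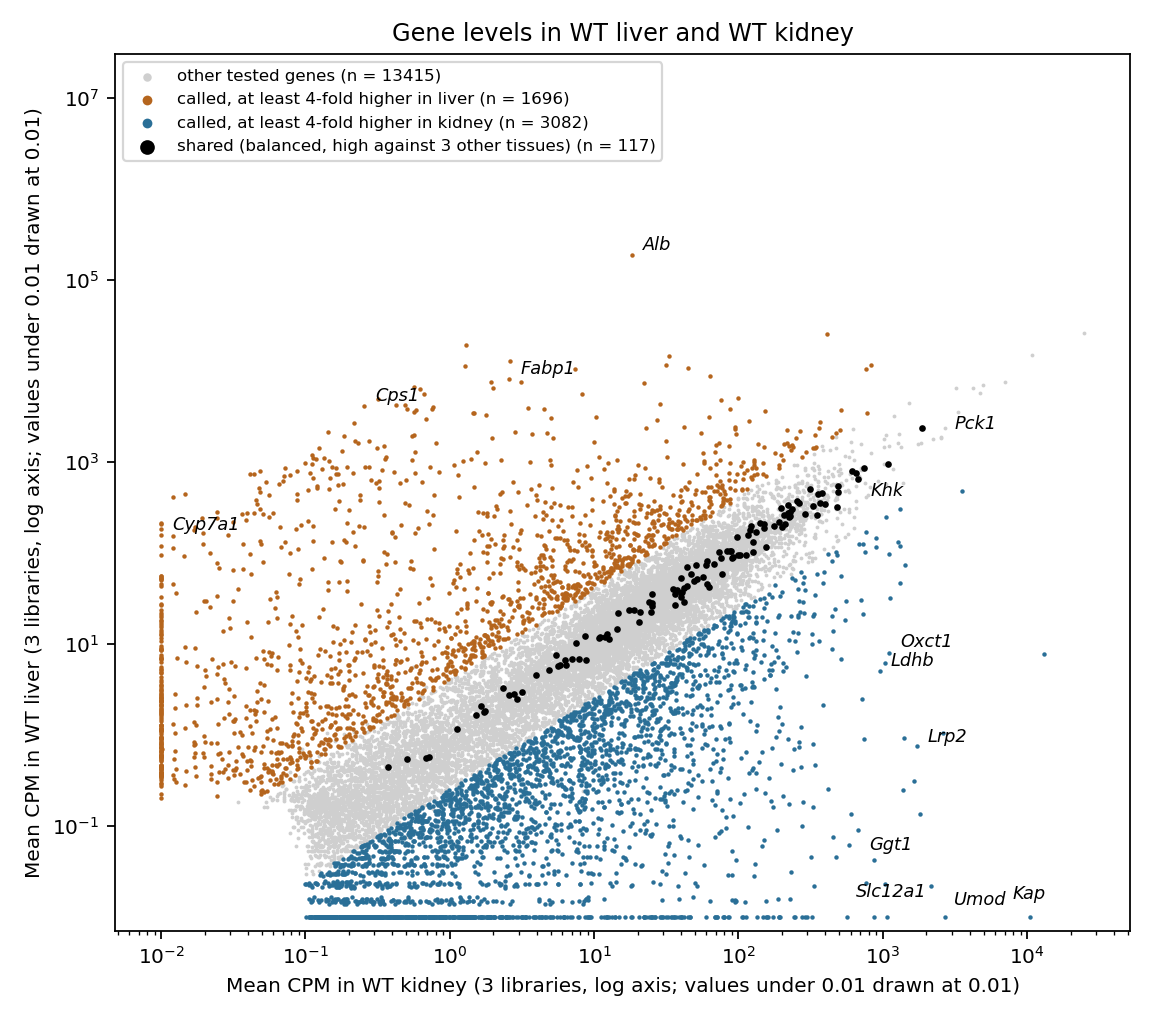
Mean level of each tested gene in WT kidney (horizontal axis) and WT liver (vertical axis), in CPM on log axes, each the mean of 3 libraries. The 1696 liver genes lie above the grey band and the 3082 kidney genes below it, many of them on the lower edge, and the 117 shared genes lie in the band itself.

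The labels were checked against markers of the main cell types. The 8 hepatocyte markers summed to 206382 to 287740 CPM in the liver libraries and to 109 to 124 CPM in the kidney libraries. The 9 proximal tubule markers summed to 17224 to 17589 CPM in kidney and to 1.18 to 1.62 CPM in liver. Markers of the loop of Henle, the distal tubule, the collecting duct and the podocyte were all higher in kidney where called. The only kidney cell marker listed that was not called was Atp6v0d2, a proton pump subunit of intercalated cells, with 23.6, 16.6 and 27.0 CPM in liver and 27.3, 24.0 and 22.7 CPM in kidney, besides the untested vasopressin receptor gene Avpr2. The 7 Kupffer and macrophage markers were all higher in liver (572 to 1002 CPM summed, against 26.4 to 38.7 CPM). The 6 markers listed for cholangiocytes, the bile duct cells, went the other way, with 28.8 to 56.7 CPM summed in liver and 1339 to 1435 CPM in kidney. Of them, 5 were called higher in kidney and 1 in liver. The 5 proliferation markers summed to 12.3 to 51.0 CPM over the liver libraries and 9.18 to 9.75 CPM over the kidney libraries. Small traces of neighbouring tissue also differed between libraries. The 5 adipocyte markers summed to 7.77 to 242 CPM over the kidney libraries and at most 0.475 CPM in liver, with the fat cell gene Cfd at 171, 68.9 and 5.06 CPM in kidney. The 5 skeletal muscle markers reached 111 CPM in kidney replicate 3 and were under 2 CPM in the other 5 libraries. The clock gene Dbp stood at 3.45, 73.7 and 8.86 CPM in liver and at 5.32, 43.8 and 19.4 CPM in kidney, and it was picked for mention once its values were known. All 12 clock genes looked at in this way had replicate 2 as the extreme in both organs, 9 as the highest and 3 as the lowest. All 6 libraries held Xist, the transcript of the silenced X chromosome, at 232 to 1052 CPM and at most 1 count of 4 Y-linked genes, so that the mice compared share a female pattern although the labels give no sex. The part of these traces and of the clock in the organ differences was not tested.

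A set of 15 gene lists for the work of the 2 organs was used to describe where they part. The lists were written with earlier results of these data known, so their counts describe these genes and not genes at large. By the signed median, the lists for plasma proteins and lipoproteins lay farthest to the liver side and those for solute and drug transport farthest to the kidney side. By the median size of the difference, phase 1 and bile acid genes (5.38 and 5.33 log2 units) came before lipoprotein genes (5.24). Of 75 plasma protein genes, 73 were called higher in liver, against 29.9% of all genes, with a median log2 fold change of 9.87, against -0.07 over all genes. Of 105 solute transport genes, 77 were called higher in kidney, against 34.5% of all genes, with a median of -3.90. The same 75 plasma protein genes took 26.1 ± 1.83% of the counts in liver and 0.211 ± 0.022% in kidney (SD, n = 3).

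**Figure D2:**
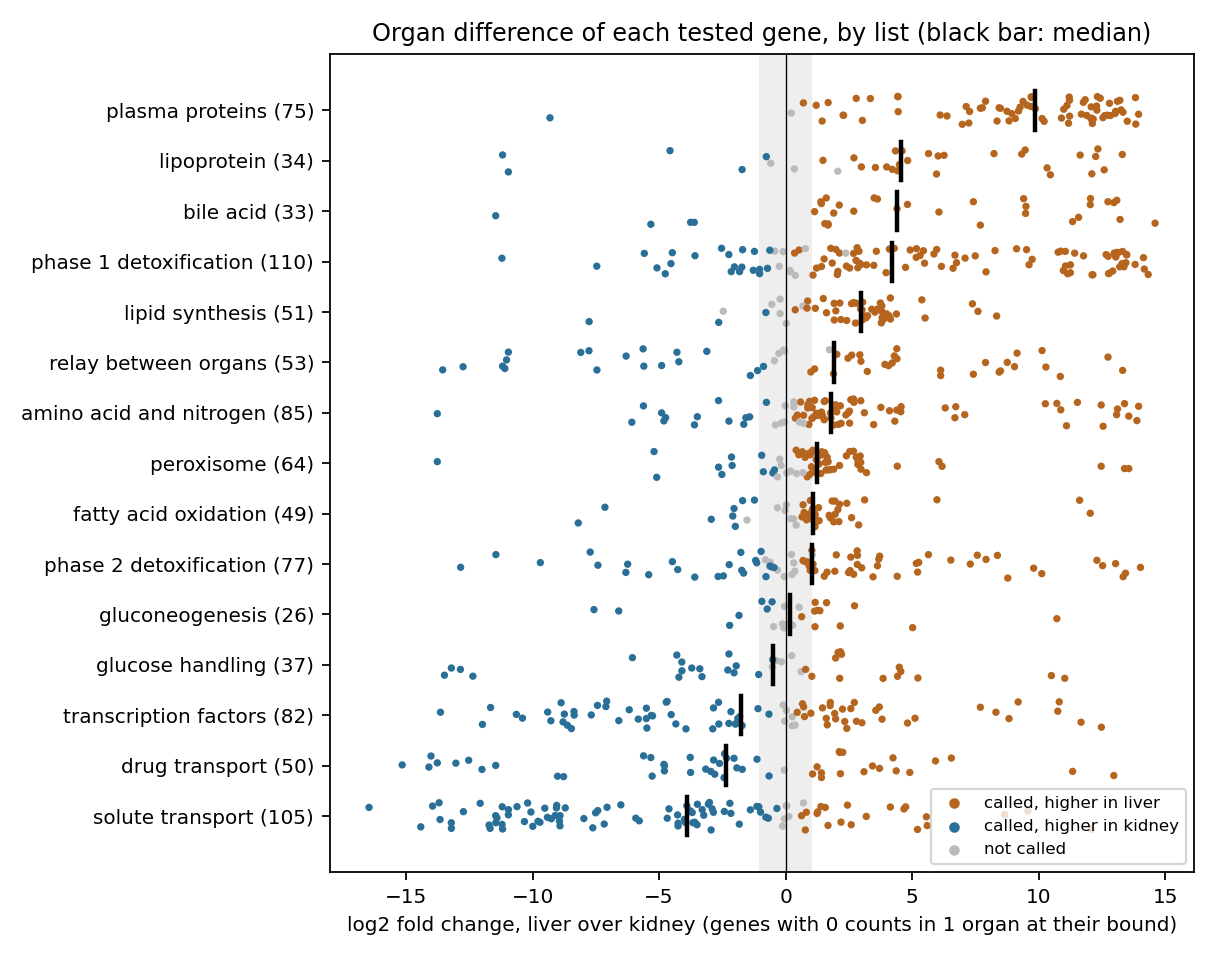
Log2 fold change (liver over kidney) of every tested gene in each of 15 lists, with the number tested in parentheses and the median as a black bar. The lists run from solute transport, with a median of -3.90, to plasma proteins, with a median of 9.87, and most lists hold genes on both sides of the shaded 2-fold band.

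The gluconeogenesis list had the median nearest to 0 of the 15 lists under TMM scaling, 0.19, which became -0.84 with total-count scaling, where phase 2 and fatty acid oxidation were nearer to 0. Of its 26 genes, 11 were called higher in liver (42.3%, against 29.9% of all genes) and 7 in kidney (26.9%, against 34.5%). Balanced genes numbered 7 (26.9%), a lower share than the 34.2% of all genes. The list took 1.34% of the counts in liver and 2.13% in kidney. Pck1, whose product makes phosphoenolpyruvate and commits carbon to glucose, stood at 1179.8, 3581 and 734 CPM in liver and at 2134, 2530.1 and 2967 CPM in kidney. The liver values straddled those of kidney, and the difference of -0.47 (SE 0.53, adjusted p = 0.463) did not pass. G6pc, the glucose 6-phosphatase that frees glucose in the last step, stood at 148, 680.2 and 435 CPM in liver and 187, 631 and 226 CPM in kidney. Replicate 2 was highest for G6pc in both organs, as it was for Dbp, and the difference of 0.28 (SE 0.61, adjusted p = 0.712) did not pass. In the Ctcf+/- libraries described below G6pc was called higher in liver, with 744, 727 and 531 CPM against 281, 354 and 145 CPM, a difference of 1.36 (SE 0.31, adjusted p = 0.00491 by edgeR). Between the genotypes this difference moved by 1.11 (SE 0.77), which the interaction test did not call. In WT neither gene met the balance rule, because its interval was too wide. Without liver replicate 2, Pck1 was called higher in kidney, at -1.40 (adjusted p = 0.00575). The mitochondrial form Pck2 kept to 2.95 FPKM in liver and 5.64 FPKM in kidney, against 534 and 742 FPKM for Pck1.

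Other members of the list were balanced under TMM scaling. Khk, the ketohexokinase that opens fructose metabolism, stood at 494, 723 and 733 CPM in liver and 523, 737 and 748 CPM in kidney, a difference of -0.04 (SE 0.22). Eno1 at -0.04 (SE 0.18), Mdh1 at -0.12 (SE 0.15) and Mdh2 at -0.07 (SE 0.15) were balanced as well. With total-count scaling Khk, Eno1, Mdh1 and Mdh2 were called higher in kidney, at -1.06, -1.07, -1.15 and -1.10. Fbp1, the fructose bisphosphatase, was higher in liver, with 1398, 1832 and 1504 CPM against 615, 770.3 and 721 CPM, a log2 difference of 1.17 (SE 0.18, adjusted p = 0.00071), which fell to 0.14 and was not called with total-count scaling. Its muscle-type relative Fbp2 was found in kidney, at 22.3, 21.3 and 25.9 CPM, with at most 0.351 CPM in liver. Even there Fbp1 made up 95.9 ± 0.58% of the summed FPKM of the pair (SD, n = 3).

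Genes by which carbon enters the pathway differed in both directions. Alanine and serine lead into it through the transaminase Gpt, at 381, 380.1 and 487 CPM in liver and 11.9, 12.5 and 14 CPM in kidney, and the serine dehydratase Sds, at 118, 109 and 119 CPM in liver and at most 0.118 CPM in kidney. Both were higher in liver, by 5.02 (SE 0.14) and 10.72 (SE 0.33) log2 units. Glycerol enters through the kinase Gk, which was higher in kidney, at 508, 505 and 426 CPM against 127, 177 and 96.9 CPM, a difference of -1.84 (SE 0.22, adjusted p = 0.000216). Lactate enters through lactate dehydrogenase. Its subunit gene Ldhb stood at 797, 1009 and 1056 CPM in kidney and 3.98, 3.70 and 7.33 CPM in liver, while Ldha was higher in liver, with 1725, 1605 and 637 CPM against 400.0, 467 and 425 CPM. Ldha thus made up 98.9 ± 1.1% of the pair's summed FPKM in liver and 17.8 ± 1.6% in kidney. The third liver library was the lowest of its group, and the Ldha difference was 1.62 (SE 0.34, adjusted p = 0.00446), with groups that did not overlap. With total-count scaling it was 0.56 and not called.

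Most genes of glucose capture, storage and recovery differed between the organs. Of 37 glucose handling genes, 14 were called higher in liver (37.8%, against 29.9% of all genes) and 18 in kidney (48.6%, against 34.5%). Differences of 4-fold or more made up 26 of these calls, and 3 genes were balanced (8.11%, against 34.2%). Hk1, the hexokinase that works at low glucose, stood at 5.90, 8.43 and 8.27 CPM in liver and 124, 134 and 130.2 CPM in kidney. The groups lay far apart, and the log2 difference was -4.10 (SE 0.15, adjusted p = 4.6e-07). Pyruvate kinase switched from the liver form Pklr (89.0 ± 2.9% of the pair's summed FPKM in liver) to Pkm in kidney, where Pklr kept 5.71 ± 0.72%.

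Glycogen genes were liver-weighted but not absent from kidney. Gys2, the liver glycogen synthase, stood at 148, 317 and 136 CPM in liver and 9.14, 8.67 and 10.2 CPM in kidney, and Gys1, the form of other tissues, at 2.89, 3.33 and 4.25 and 34.8, 36.8 and 38.2 CPM. The liver phosphorylase Pygl, which opens glycogen breakdown, was higher in liver by 4.49 (SE 0.24), and the brain-type Pygb was higher in kidney by 2.04 log2 units. Glucose crosses the hepatocyte membrane and the basal side of the tubule through the carrier Slc2a2, with 308, 439 and 407 CPM in liver and 71.2, 97.3 and 93.3 CPM in kidney. The sodium-coupled carrier Slc5a2, which recovers filtered glucose, was at 135, 215 and 213 CPM in kidney and at 0, 1 and 1 counts in the liver libraries. Its partner for the last traces of glucose, Slc5a1, was at 80.6, 93.7 and 85.1 CPM in kidney against 1.28, 0.637 and 1.96 CPM in liver. The inositol-degrading oxygenase Miox, a proximal tubule enzyme, was among the most abundant of the kidney genes, at 1257, 1749 and 1954 CPM against 0.351, 0.27 and 0.315 CPM.

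Such exchanges of 1 gene for another were counted over 40 pairs of genes listed for the same or neighbouring steps. The pairs were chosen with earlier results of these data known, so the counts describe these pairs and not genes at large. In 25 of the 40 pairs the partners were called in opposite directions, in 18 both by 4-fold or more, and in 23 the gene with the larger FPKM changed between the organs. In 8 pairs both partners were called in the same direction. Arginase was a clear case, with Arg1, the urea cycle enzyme, at 1541, 1677 and 1779 CPM in liver and the mitochondrial Arg2 at 28.7, 18.9 and 20.7 CPM in kidney. Creatine synthesis was divided by step. Gatm, the first enzyme, stood at 419, 521 and 701 CPM in kidney and 18.2, 19.8 and 16.9 CPM in liver, and Gamt, the second, at 358, 360.2 and 327 CPM in liver and 12.6, 17.4 and 19.8 CPM in kidney. In the pairs of Pck1 with Pck2, Cpt1a with Cpt1b and Hnf4a with Hnf4g the first gene held over 99% of the pair in both organs, a share at which a change in the second is hardly seen. Hnf4g itself was called higher in kidney, so that its pair is among the 25, and Pck2 was called higher in kidney too.

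**Figure D3:**
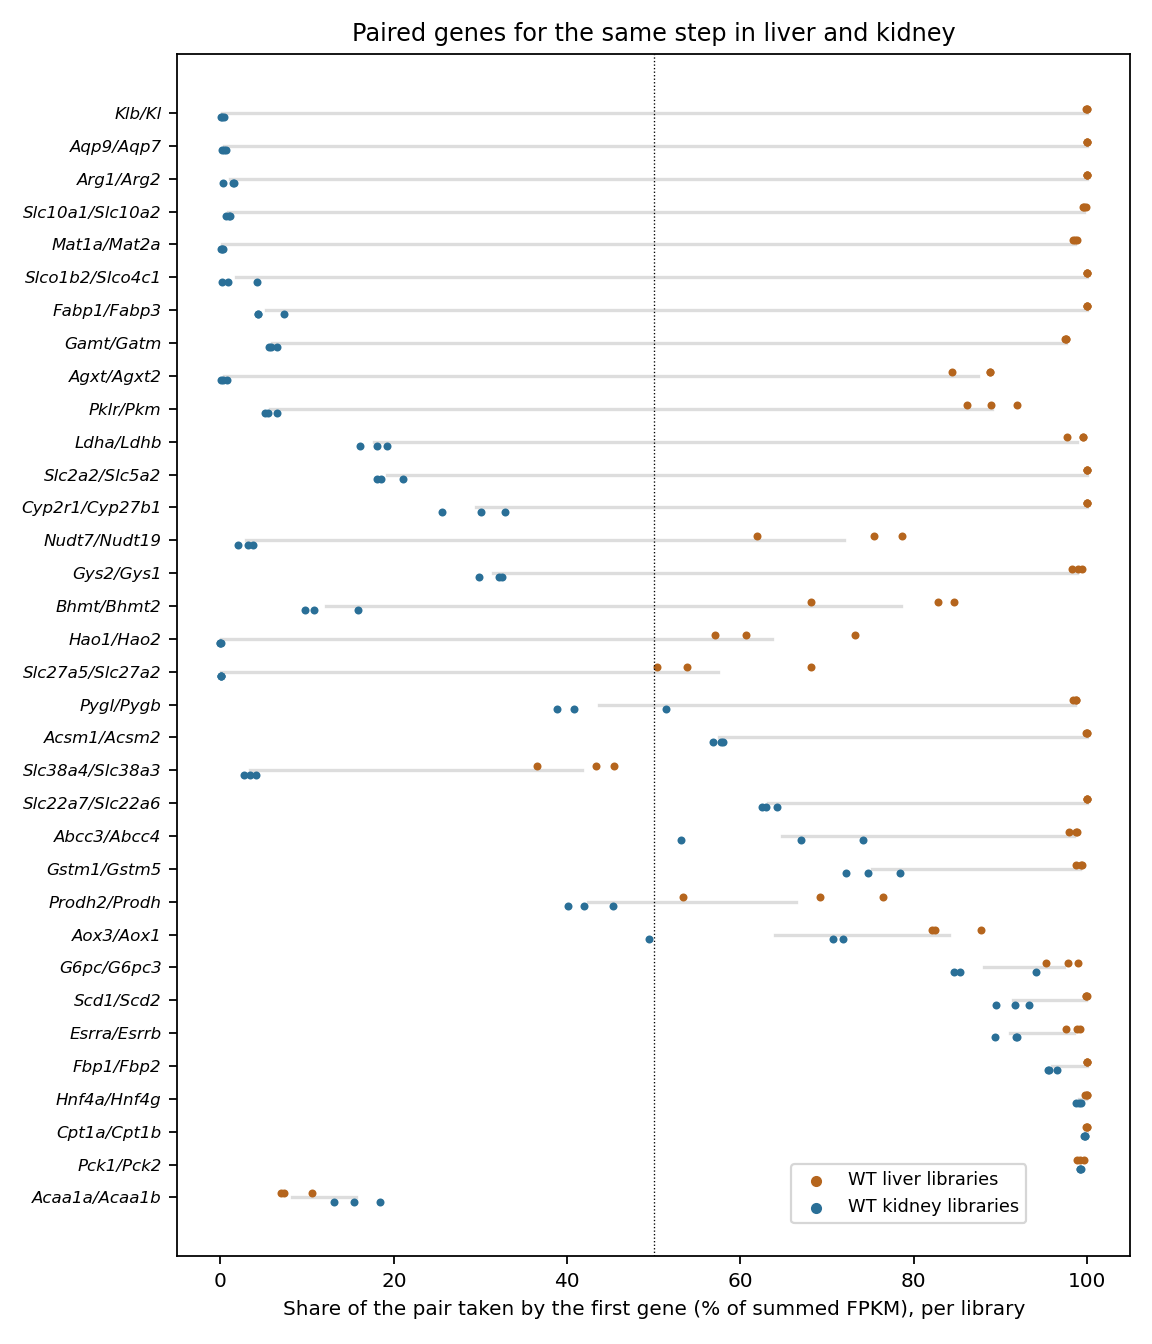
Share of the summed FPKM taken by the first gene of each pair in each of the 3 WT liver and 3 WT kidney libraries, for 34 of the 40 pairs (the pair of Thpo with Epo, which was not tested, and 5 others are not shown). Pairs at the top, such as Klb with Kl and Arg1 with Arg2, run from near 100% in liver to near 0% in kidney, and in those at the bottom, such as Pck1 with Pck2, the first gene takes nearly all in both organs.

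Fatty acid oxidation leaned to liver, by less than the other lipid lists. Of 49 genes, 34 were called higher in liver (69.4%, against 29.9% of all genes) and 8 in kidney (16.3%, against 34.5%). Balanced genes numbered 5 (10.2%, against 34.2%), and the median log2 fold change was 1.07. With total-count scaling the list split into 16 and 16 calls, and the median fell to 0.03. The rate-limiting importer of the pathway, Cpt1a, stood at 461, 629 and 347 CPM in liver and 245, 280.3 and 245 CPM in kidney, a difference of 0.90 (SE 0.22, adjusted p = 0.00762) that turned to kidney with total-count scaling. Slc27a2, an acyl-CoA synthetase for very long chains, was at 2133, 2206 and 1009 CPM in liver and 2216, 2231 and 2233 CPM in kidney, a difference of -0.32 (SE 0.30, adjusted p = 0.373). Its relative Slc27a5, which also activates bile acids, was at 1403, 1671 and 1402 CPM in liver and at most 0.438 CPM in kidney. Ehhadh, the peroxisomal bifunctional enzyme, was balanced, with 496, 1118 and 633 CPM and 773, 567 and 612 CPM, though liver replicate 2 stood above the rest. Slc22a5, the carnitine carrier, was higher in kidney, with 166, 209 and 161 CPM against 33.4, 75.3 and 21.8 CPM.

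Oxct1, the transferase with which tissues other than liver use ketone bodies, stood at 1044, 1193 and 1067 CPM in kidney and 6.85, 8.43 and 8.16 CPM in liver, a difference of -7.14 (SE 0.15, adjusted p = 8.71e-08). The fatty acid binding proteins were exchanged as well. Fabp1 reached 9284, 10859 and 4219 CPM in liver and 3.12, 2.44 and 2.17 CPM in kidney, where Fabp3 stood at 58.8, 80.9 and 72.4 CPM against at most 0.427 CPM in liver.

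Peroxisome genes showed the same lean to liver with exceptions. Of 64 genes, 46 were called higher in liver (71.9%, against 29.9% of all genes) and 11 in kidney (17.2%, against 34.5%). Balanced genes numbered 9, and the median was 1.24. With total-count scaling the calls became 29 for liver and 19 for kidney, and the median fell to 0.21. The genes for ether lipid synthesis leaned the other way or not at all. Far1, the fatty acyl reductase, stood at 145, 129 and 105 CPM in kidney and 3.05, 3.72 and 3.53 CPM in liver, Agps differed by -2.52 (SE 0.14), and Gnpat was balanced at 0.05 (SE 0.08). The 2-hydroxyacid oxidases divided by organ, with Hao1, the glycolate oxidase, at 354, 292 and 198 CPM in liver and 10, 0 and 0 counts in kidney, and Hao2 at 938, 877 and 873 CPM in kidney against 116, 196 and 116 CPM. Urate oxidase, Uox, which degrades uric acid in mice, stood at 1915, 3579.8 and 2541 CPM in liver and at most 0.394 CPM in kidney. The D-amino acid oxidase Dao was the reverse, at 199, 257 and 228 CPM in kidney and 0, 1 and 1 counts in liver.

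Lipid synthesis genes were mostly higher in liver. Of 51 genes tested, 42 were called higher in liver (82.4%, against 29.9% of all genes), 33 of them by 4-fold or more. Kidney was higher for 3 (5.88%, against 34.5%), and the median was 2.96. Scd1, the desaturase that makes oleate, stood at 5199.7, 12337 and 17182 CPM in liver and 626, 1036 and 826 CPM in kidney. Thrsp, a lipogenic regulator, stood at 200.1, 518 and 589 CPM in liver and 29.3, 28.1 and 5.30 CPM in kidney, where the first 2 replicates, which held the most adipocyte RNA, were above the third. Of the sterol synthesis genes, Sc5d, a late enzyme of cholesterol synthesis, was higher in liver by 5.51 (SE 0.20), but Cyp51, the sterol demethylase before it, was balanced, with 468, 274 and 292 CPM in liver and 420.2, 418 and 363 CPM in kidney. Without liver replicate 1 Cyp51 was called higher in kidney, at -0.50 (adjusted p = 0.0316). One of the 3 kidney calls, Plin1, which limma-voom did not make, coats fat droplets in adipocytes, and its kidney values of 15.1, 9.78 and 0.458 CPM went with the other adipocyte markers. The part of adipocyte RNA in that call was not tested.

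Lipoprotein genes divided by role. Of 34 genes, 26 were called higher in liver (76.5%, against 29.9% of all genes) and 5 in kidney (14.7%, against 34.5%). The median was 4.55. The particle proteins lay on the liver side, with Apoa1 at 16129.6, 15346 and 6577 CPM in liver and 4.35, 1.5 and 1.93 CPM in kidney, and Apoa5 at 1535, 2638 and 1525 CPM and at most 0.35 CPM in kidney. The receptors that take up filtered apolipoproteins and vitamin carriers lay on the kidney side. Lrp2 (megalin) stood at 1969.7, 1633 and 1551 CPM in kidney and 0.599, 0.809 and 0.809 CPM in liver, a difference of -11.19 (SE 0.20, adjusted p = 6.66e-08), and its partner Cubn at 363, 306 and 316 CPM against at most 0.225 CPM. Lpl, the lipase that frees fatty acids from particles, stood at 1053, 558 and 509.7 CPM in kidney and 32.1, 22.1 and 35.1 CPM in liver. Adipocytes also express Lpl. In kidney replicate 3, where the adipocyte markers summed to 7.77 CPM, Lpl stood at 509.7 CPM, and the part of adipocyte RNA in the difference was not tested.

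Bile acid genes separated the organs with no balanced member. Of 33 genes, 29 were called higher in liver (87.9%, against 29.9% of all genes) and 4 in kidney (12.1%, against 34.5%). The median was 4.40. Cyp7a1, the rate-limiting enzyme of bile acid synthesis, stood at 159, 63.6 and 250.3 CPM in liver and at 2, 0 and 0 counts in kidney. Abcb11, the pump that exports bile salts into bile, stood at 919.7, 875 and 1126 CPM in liver and at most 0.226 CPM in kidney. The sodium-coupled uptake carrier was exchanged: Slc10a1 stood at 1075, 1026 and 1248 CPM in liver and 0.365, 0.361 and 0.365 CPM in kidney, and Slc10a2 at 146, 85.1 and 83.7 CPM in kidney and 12, 8.75 and 5.01 CPM in liver. The 2 subunits of the basolateral exporter were the other kidney genes besides Abcc4, with Slc51a at 15.6, 30.6 and 28.5 CPM in kidney and Slc51b at 32.5, 33.0 and 28.7 CPM. Together these 3 carriers make up the known route by which epithelia recover bile acids.

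Drug transport leaned to kidney. Of 50 genes, 31 were called higher in kidney (62%, against 34.5% of all genes), 27 of them by 4-fold or more. Liver was higher for 18 (36%, against 29.9%), and the median was -2.37. The organic anion carriers of the basal tubule membrane were near absent from liver. Slc22a6 stood at 323, 333 and 339 CPM in kidney and at 1, 0 and 2 counts in liver, and Slc22a8 at 372, 487 and 488 CPM in kidney and at most 0.157 CPM in liver. Slc22a12, which recovers urate from the filtrate, stood at 541, 547 and 612 CPM in kidney and had 0 counts in all 3 liver libraries, so that it was at least 8378-fold higher in kidney against a floor of 3 counts per library. Slc22a19 was at least 4096-fold higher on the same floor.

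Cation carriers held both a kidney gene and a balanced one. Slc22a2, a cation carrier of the basal tubule membrane, was at 141, 172 and 153 CPM in kidney and at 1, 0 and 0 counts in liver. Slc47a1, the exporter that passes cations into bile and urine, was balanced, with 172, 165 and 184 CPM in liver and 254, 273 and 292 CPM in kidney. Its difference of -0.65 (SE 0.12, adjusted p = 0.00157) was called all the same. The Oatp carriers of the hepatocyte, Slco1b2 at 1017, 1191 and 1083 CPM and Slco1a4 at 135, 176 and 161 CPM in liver, reached at most 0.314 and 1.99 CPM in kidney. Slco1a6 was a kidney member, at 306, 348 and 316 CPM, with 0, 0 and 1 counts in liver. Of the 53 listed drug transport genes 16 were at least 4-fold higher in both organs than in brain, muscle and spleen, against 2.91% of all genes.

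Genes for the oxidation of foreign compounds, phase 1, were mostly called higher in liver. Of 110 genes tested, 81 were called higher in liver (73.6%, against 29.9% of all genes), 72 of them by 4-fold or more. Kidney was higher for 21, and 6 were balanced (5.45%, against 34.2%), with a median of 4.20. The listed genes took 4.52% of the counts in liver and 0.909% in kidney. Cyp2e1, which oxidises small solvents and alcohol, stood at 9512, 10188 and 6267 CPM in liver and 59.2, 70.9 and 60.3 CPM in kidney. The Cyp3a members were lowest in kidney, with Cyp3a41a at 211, 248 and 168 CPM in liver and at 1, 0 and 3 counts in kidney. Members of the Cyp3a and Cyp2c families are nearly alike in sequence, and because fragments matching several places were not counted, their single values are uncertain.

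Some phase 1 genes were higher in kidney, though fewer by share than over all genes. Kidney calls made up 19.1% of the list, against 34.5% of all genes, and 4-fold kidney calls 11.8%, against 16.8%. Cyp2j11 stood at 149, 169 and 164 CPM in kidney with 0 counts in all liver libraries, at least 2373-fold higher. Cyp1b1, which is known from steroid and hydrocarbon oxidation, stood at 29.9, 34.2 and 25 CPM in kidney and 0.764, 0.466 and 0.607 CPM in liver. The retinaldehyde dehydrogenases Aldh1a2 and Aldh1a3, which make retinoic acid, were both kidney genes, at -4.53 (SE 0.24) and -5.09 (SE 0.36). A few abundant enzymes did not part the organs. Cyp2j5, an arachidonate epoxygenase, stood at 928, 882 and 752 CPM in liver and 740.1, 772 and 727 CPM in kidney. Fmo1, a flavin monooxygenase, stood at 432, 516 and 429.6 CPM and 402, 535 and 538 CPM. Both were balanced, with liver and kidney values that overlapped.

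Conjugation, phase 2, was divided more evenly. Of 77 genes tested, 43 were called higher in liver (55.8%, against 29.9% of all genes) and 24 in kidney (31.2%, against 34.5%). Balanced genes numbered 8 (10.4%, against 34.2%). The median was 1.04, which became 0.02 with total-count scaling. The glucuronosyltransferase Ugt2b36 stood at 689, 804 and 673 CPM in liver and at most 0.0803 CPM in kidney, and the sulfotransferase Sult2a8 at 717, 618 and 506 CPM in liver and at most 0.153 CPM in kidney. Ggt1, the transferase that opens glutathione breakdown on the brush border, stood at 637, 691 and 679 CPM in kidney and 0.0826, 0.049 and 0.135 CPM in liver, a difference of -12.84 (SE 0.33, adjusted p = 6.54e-08), and the dipeptidase Dpep1 at 96.5, 121 and 118 CPM against at most 0.867 CPM in liver.

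Among the balanced genes was Gclm, the modifier subunit of the first enzyme of glutathione synthesis, which stood at 267, 267 and 214 CPM in liver and 241, 268 and 267 CPM in kidney. Supply of activated sulfate through Papss2 was also balanced, with 360.0, 431 and 543 CPM and 356, 319.9 and 391 CPM. Glycine conjugation was served by genes that differed little or divided by organ. Acyl-CoA for it comes from the Acsm enzymes. Acsm1 was higher in liver by 0.97 (SE 0.13, adjusted p = 0.000397), a sign that turned with total-count scaling (-0.06), and Acsm2 stood at 705, 792 and 741 CPM in kidney and 1.53, 0.784 and 0.36 CPM in liver. The Ugt1a genes share all but their first exon, so their values are uncertain. Ugt1a5 was found in liver at 71.2, 149.7 and 131 CPM, and Ugt1a2 in kidney at 249, 258 and 321 CPM.

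Solute transport had the lowest median of the lists. Of 105 genes, 77 were called higher in kidney (73.3%, against 34.5% of all genes), 69 of them by 4-fold or more. Liver was higher for 22 (21.0%, against 29.9%), and 7 were balanced (6.67%, against 34.2%). The list took 3.35% of the counts in kidney and 0.753% in liver. Of the 105, 15 had 0 counts in every library of 1 organ. Slc12a1, the salt cotransporter of the loop of Henle, stood at 1088, 1056 and 1071 CPM in kidney and at 0 counts in all liver libraries, at least 15851-fold higher. Slc34a1, the phosphate carrier of the proximal tubule, stood at 1725, 2325 and 2400.3 CPM in kidney and at 1, 0 and 2 counts in liver. The amino acid carrier Slc6a18 was at least 12925-fold and the water channel Aqp2 at least 4304-fold higher in kidney. The 3 kidney values lay close together for Slc12a1, and liver values for these 3 genes were all at 0.

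The list also held 22 genes called higher in liver. Aqp9, a channel for glycerol and urea, stood at 734, 770.1 and 470.1 CPM in liver and at most 0.256 CPM in kidney, where the glycerol channel Aqp7 stood at 28.4, 18.4 and 21.9 CPM. The amino acid carriers Slc38a4, at 1013, 1179 and 1042 CPM, and Slc38a3, at 1625, 2062 and 2421 CPM in liver, were both liver genes. In kidney they stood at 1.65, 1.10 and 1.49 and 52.1, 41.5 and 71.2 CPM. The cationic amino acid carrier Slc7a2 was higher in liver by 6.61 (SE 0.16). Among the balanced members, Slc9a3r1, a scaffold for membrane carriers, stood at 285, 236 and 219 CPM in liver and 243, 224 and 262 CPM in kidney, and the monocarboxylate carrier Slc16a7, one of the shared genes defined below, at 118, 150.0 and 123 CPM and 129, 121 and 128 CPM.

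Amino acid and nitrogen metabolism leaned to liver. Of 85 genes, 63 were called higher in liver (74.1%, against 29.9% of all genes) and 14 in kidney (16.5%, against 34.5%). Balanced genes numbered 8 (9.41%, against 34.2%), and the median was 1.77. Of the 85, 35 were at least 4-fold higher in both organs than in brain, muscle and spleen, against 2.91% of all genes. The urea cycle was on the liver side, with Cps1, its first enzyme, at 3052, 3396 and 5828 CPM in liver and 0.511, 0.0157 and 0.236 CPM in kidney, and Otc at 677, 742 and 717 CPM against at most 0.161 CPM. Mat1a, which makes S-adenosylmethionine, stood at 4868, 4703 and 5116 CPM in liver and 0.577, 0.0392 and 0.343 CPM in kidney. For Cps1, Mat1a and Otc the kidney value was highest in replicate 1 and lowest in replicate 2. Alb, the most abundant liver gene, had the same order in kidney, with 28.7, 7.12 and 18.7 CPM. These traces are the denominators of the largest liver folds, and the part of carried-over liver RNA in them was not tested.

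Kidney led in another amino acid step. Phgdh, which starts serine synthesis, stood at 18.9, 22.0 and 17.4 CPM in kidney and 0.537, 0.711 and 0.832 CPM in liver. Aass, the first enzyme of lysine breakdown, stood at 312, 289 and 398 CPM in liver and 193, 227 and 244 CPM in kidney, a difference of 0.59 (SE 0.16, adjusted p = 0.0144) that was called and yet balanced. It turned with total-count scaling, and without kidney replicate 1 it was not called (adjusted p = 0.0544). Chdh, the choline dehydrogenase, stood at 151, 209 and 201 CPM and 161, 142 and 145 CPM, a difference of 0.32 (SE 0.15, adjusted p = 0.0938), which passed without liver replicate 1 (adjusted p = 0.0225). Prodh, the proline dehydrogenase, was at 214, 152 and 364 CPM and 158, 169.8 and 173 CPM and was neither called nor balanced. Without liver replicate 2 it was called higher in liver, at 0.80 (adjusted p = 0.0164).

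Several hormone and vitamin routes run from 1 organ to the other. Of 53 genes listed for such routes and tested, 29 were called higher in liver (54.7%, against 29.9% of all genes). Kidney was higher for 19 (35.8%, against 34.5%), a share near that of all genes. Balanced genes numbered 3, and the median was 1.89. Vitamin D is hydroxylated in both organs. Cyp2r1, a 25-hydroxylase, stood at 25.2, 19.5 and 21.1 CPM in liver and 1.30, 0.894 and 1.14 CPM in kidney. Cyp27b1, the 1-hydroxylase that makes the active hormone, stood at 4.61, 2.23 and 3.23 CPM in kidney with 0 counts in all liver libraries, at least 49.6-fold higher. The degrading enzyme Cyp24a1 had 0 counts in liver too and 7.2, 24.6 and 12.5 CPM in kidney, and the receptor Vdr stood at 145, 138 and 168 CPM against at most 0.123 CPM. The klotho co-receptors for fibroblast growth factors were exchanged, with Klb at 45.4, 55.8 and 62.7 CPM in liver and Kl at 312, 343 and 300.5 CPM in kidney.

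The renin-angiotensin genes were split by step. Agt, the precursor, stood at 1239, 1551 and 1034 CPM in liver and 68.8, 67.3 and 70.1 CPM in kidney, Ren1, which cleaves it, at 57.2, 53.4 and 38.9 CPM in kidney and at 1, 2 and 0 counts in liver, and Ace, which makes the active peptide, at 165, 203 and 201 CPM in kidney and 0.991, 1.18 and 1.08 CPM in liver. Agt and Ace were chosen after their values were seen. Hamp, the iron hormone hepcidin, stood at 699, 515 and 1037 CPM in liver and at most 0.212 CPM in kidney. Rbp4, the retinol carrier that megalin recovers, was at 4037, 4365 and 3336 CPM in liver and 4.87, 4.43 and 1.13 CPM in kidney. Ghr, the growth hormone receptor, was balanced, with 550.4, 559.8 and 501 CPM in liver and 745, 637 and 559 CPM in kidney. So was the mineralocorticoid receptor Nr3c2, at -0.04 (SE 0.29), although Hsd11b2, which shields that receptor from glucocorticoids, stood at 110.3, 114 and 95.5 CPM in kidney and at 0, 1 and 0 counts in liver.

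Plasma proteins were liver genes with 1 shared exception. Alb (albumin) stood at 181434, 219804 and 162566 CPM in liver. Ahsg (fetuin), with 19692, 23169 and 14224 CPM, and Mug1, a protease trap, with 2727, 1965 and 1677 CPM, reached at most 2.58 and 0.35 CPM in kidney. The single kidney call, Cfd, which limma-voom did not make, is an adipocyte product and varied with the adipocyte markers as given above. Kng2, a kininogen that carries the peptide bradykinin, was balanced, with 464, 498 and 374 CPM in liver and 366, 384 and 395 CPM in kidney. Without liver replicate 3 Kng2 was called higher in liver, at 0.35 (adjusted p = 0.034).

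Most transcription factors of the list parted the organs. Of 82 genes, 32 were called higher in liver (39.0%, against 29.9% of all genes) and 44 in kidney (53.7%, against 34.5%), with a median of -1.77. Balanced genes numbered 8 (9.76%, against 34.2% of all genes), of which 1 was shared. Onecut2 at 101, 66.7 and 110.4 CPM and Foxa2 at 86.9, 41.8 and 71.0 CPM, factors of liver development, reached at most 0.0358 and 0.0438 CPM in kidney. Hoxa9, Emx2 and Irx2, which pattern the embryonic axis and kidney, had 0 counts in all liver libraries and 42.0 ± 3.59, 31.7 ± 1.98 and 22.3 ± 1.98 CPM in kidney (mean ± SD, n = 3). Hnf4a, the nuclear receptor of both organs, stood at 602, 1069.6 and 677 CPM in liver and 485, 507 and 487 CPM in kidney, a called difference of 0.67 (SE 0.22, adjusted p = 0.0319) that turned with total-count scaling. The Hnf4a call was lost without any 1 of the 3 kidney libraries or without liver replicate 2, where the difference was 0.38 (adjusted p = 0.065).

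What the organs have in common was set against the 3 other WT tissues. In a fit of 15 WT libraries, 667 of 22933 genes (2.91%) were at least 4-fold higher in both liver and kidney than in each of brain, muscle and spleen. Of these, 367 were called higher in liver and 138 in kidney, 215 and 63 of them by 4-fold or more. The rule sets no minimum level, so the 667 include genes with little RNA in kidney. Examples are Fabp1 and Cyp2c68, with kidney means of 2.58 and 0.213 CPM. Only 117 genes (0.51% of 22933) were also balanced between the organs, and these are called shared. Rida, which removes reactive intermediates of amino acid breakdown, stood at 1006 ± 159.6 CPM in liver and 1199 ± 28.4 CPM in kidney on the scale of that fit, against 25.9 ± 1.88 in brain, 21.7 ± 3.64 in muscle and 10.5 ± 0.81 in spleen (mean ± SD, n = 3). With total-count scaling the organ difference of Rida was -1.26, beyond the 2-fold margin. Khk stood at 698 ± 134 and 736 ± 142 CPM, against 6.60 ± 0.468, 39.7 ± 5.6 and 15.5 ± 3.72. Cyp2j5 was the sharper case, with 919.6 ± 115 and 820.4 ± 29.5 CPM against 0.0404 ± 0.0256, 2.10 ± 2.53 and 0.107 ± 0.0448.

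Among the 15 most abundant shared genes were Tmbim6, the first in level, a membrane protein of the endoplasmic reticulum that limits cell death, at 2502 ± 558 and 2047 ± 285 CPM, and the lysosomal membrane protein Lamp2, at 843 ± 38.8 and 669 ± 16.9 CPM. Spleen, the nearest of the other tissues for Aldh9a1, an aldehyde dehydrogenase of carnitine synthesis, held 44.8 ± 2.08 CPM against 539 ± 67.6 and 343 ± 19.8. Aldh9a1 and Lamp2 were balanced and yet called higher in liver under TMM scaling. Their differences were 0.68 (SE 0.13, adjusted p = 0.00274) and 0.36 (SE 0.13, adjusted p = 0.0379), and both signs turned with total-count scaling. Ehhadh, Fmo1, Kng2, Papss2 and Cyp51, given above, belong to the same 15 genes. By list, 32 of 80 phase 2 genes, 25 of 124 phase 1 genes and 7 of 26 gluconeogenesis genes were among the 667, against 2.91% of all genes. Membership shows a level above the 3 other tissues and not a like level in both organs. Among those 7 are Pck1, G6pc, Fbp1 and Khk. The balanced genes with the highest levels included the mitochondrial genes mt-Co1 at 0.04 (SE 0.27) and mt-Nd1 at 0.11 (SE 0.20) and Fth1, which encodes a ferritin chain, at -0.20 (SE 0.21).

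**Figure D4:**
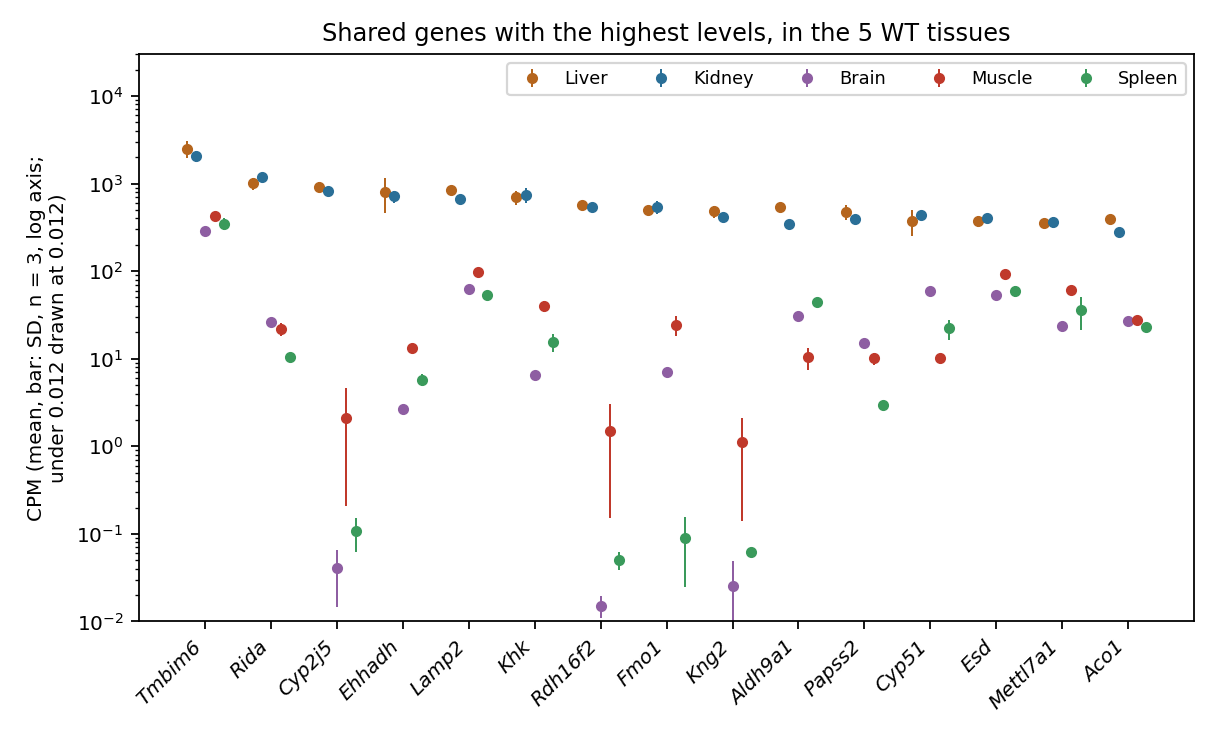
Level of the 15 most abundant shared genes in WT liver, kidney, brain, muscle and spleen, in CPM on a log axis (mean, SD as bars, n = 3). Liver and kidney points lie together for each gene and above those of the 3 other tissues, from Tmbim6, with all tissues above 100 CPM, to Kng2, with brain and spleen near 0.

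Promoters of the 667 genes defined above, high in both organs only against the other tissues, were searched for motif letters. The letters are those that factors of liver and kidney epithelium are known to bind, some of them liver factors. RefSeq promoters (GRCm38.p6, 250 bases before to 50 after the start) matched 455 of the 667 genes by symbol. The HNF4-like CAAAGTCCA or its reverse, TGGACTTTG, was present in 14 of the 455 (3.08%), against 150 of all 27025 promoter symbols (0.555%), 24 of 4961 balanced genes (0.484%), 24 of 1143 liver 4-fold genes (2.1%) and 12 of 2030 kidney 4-fold genes (0.591%). The C/EBP-like TTGCNNAAT was commoner in liver 4-fold promoters (4.99%) than in kidney ones (2.22%) or all (2.77%). The FOXA-like TGTTTAC was at 5.51%, 4.04% and 4.05% in the same order. Besides forms not reported here, 9 forms for 6 kinds of motif were searched on both strands, and those given first were picked with the counts known. Of the other forms, the HNF4 letters CAAAGTC were in 9.23% of the 455 and 5.0% of all, the FOXA letters TATTTAC in 3.96% and 3.51%, and TTGCGCAA for C/EBP in 0.22% and 0.207%. The PPAR element was in 1 of the 455 (0.22%, against 0.0481% of all). The ERR letters TCAAGGTCA were in 1 (0.22%, against 0.466%) and the DR1 repeat in 3 (0.659%, against 0.0777%). The classes overlap. A match describes letters and not a bound site.

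A group of 4 promoters with the HNF4-like motif was picked to show it in genes that lean either way. Each window is 80 bases on GRCm38.p6, 5′ to 3′ along the gene, ends at or before the start, overlaps no annotated exon, and has the motif in capitals.
Cyp2c69 (chr19:39886800-39886879, minus strand): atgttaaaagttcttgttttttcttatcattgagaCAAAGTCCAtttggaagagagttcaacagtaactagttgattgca
Cyp2c68 (chr19:39741134-39741213, minus strand): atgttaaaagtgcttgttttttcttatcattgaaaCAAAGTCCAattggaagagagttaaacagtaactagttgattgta
Slc3a1 (chr17:85028267-85028346, plus strand): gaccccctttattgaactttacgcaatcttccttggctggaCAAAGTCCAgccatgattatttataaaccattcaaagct
Cdcp1 (chr9:123216152-123216231, minus strand): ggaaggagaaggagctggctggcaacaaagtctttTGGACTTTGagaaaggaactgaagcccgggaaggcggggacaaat

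The 4 genes, picked for their different directions after their values were seen, had these levels. The cytochromes Cyp2c69 and Cyp2c68 were liver genes, with 2105, 1886 and 853 and 898, 743 and 626 CPM in liver and at most 0.993 and 0.329 CPM in kidney, and their split is uncertain because they are near copies. Slc3a1, a subunit of the cystine carrier of the tubule, was higher in kidney, with 388, 381 and 379 CPM against 54.0, 32.5 and 51.7 CPM, a difference of -3.05 (SE 0.19, adjusted p = 7.74e-06). Cdcp1, a membrane protein with CUB domains, was higher in kidney as well, with 36.0, 23.9 and 29.7 CPM against at most 16.1 CPM, a difference of -1.58 (SE 0.43, adjusted p = 0.0135). Neither kidney gene had groups that overlapped.

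The same organ comparison was repeated in the Ctcf+/- mice, in 6 libraries that the WT fit did not use. Ctcf itself stood at 26.5, 23.3 and 28.3 CPM of the total in WT liver and at 20.8, 17.9 and 13.4 in Ctcf+/- liver. It stood at 65.7, 56.2 and 57.9 in WT kidney and at 38.4, 40.0 and 32.4 in Ctcf+/- kidney. All Ctcf+/- values were below all WT values in the same organ. In the Ctcf+/- libraries 12374 of 18496 genes (66.9%) were called between the organs. Of the 4778 genes called at 4-fold in WT, 4560 (95.4%) were called in the same direction there, 4631 having been tested, and none in the opposite direction. Sizes agreed less closely. Of 4215 genes at 4-fold in both fits, 3269 (77.6%) lay within 1 log2 unit of the WT value.

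Several genes named above serve as examples of levels in the Ctcf+/- mice. Slc34a1 stood at 0.0119 ± 0.0104 CPM in Ctcf+/- liver and 2517 ± 169 CPM in Ctcf+/- kidney (mean ± SD, n = 3) and Oxct1 at 5.99 ± 0.92 and 1135 ± 65.2 CPM. Khk stood at 572 ± 163 and 626 ± 96.1 CPM. Alb stood at 6.33, 8.56 and 159 CPM in Ctcf+/- kidney, so that traces of liver transcripts were highest in the third of these libraries. A test of whether the organ difference itself differed between genotypes called 2 of 19392 genes (0.0103%) in edgeR, with 926 at an unadjusted p under 0.05, and 52 in DESeq2.

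**Figure D5:**
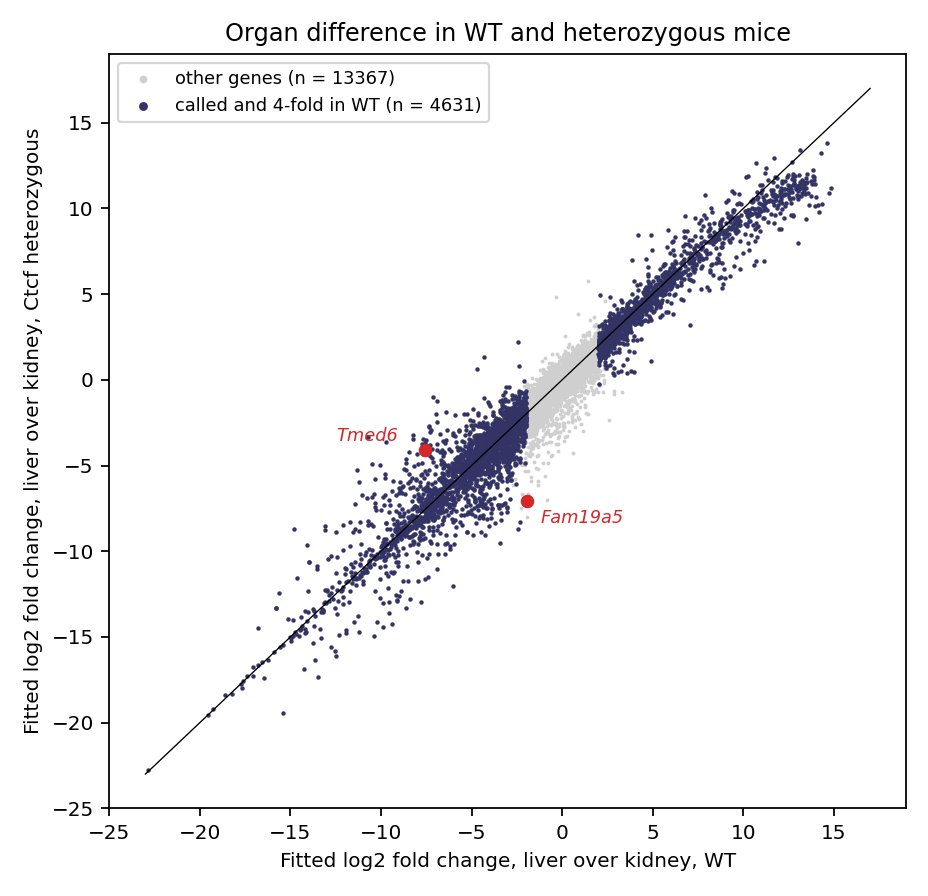
Fitted log2 fold change of liver over kidney in WT mice (horizontal axis) and in Ctcf+/- mice (vertical axis) for each gene tested in both, with the line of equality. Most of the 4631 genes called at 4-fold in WT lie near the line, the largest liver folds lie below it, and the 2 genes with a called interaction are marked in red.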

How the data were processed

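RNA was measured in 3 WT liver and 3 WT kidney libraries, with 3 Ctcf+/- libraries per organ and 9 further WT libraries for comparison. Tissue was homogenised in TRIzol, its total RNA freed of DNA, and libraries made by an Illumina protocol, per the labels' protocols. Each deposited file holds the authors' raw counts of fragments by gene, from featureCounts 1.5.0-p3 run on exons of GRCm38 without regard to strand, per the file headers, whose command sets no option to count fragments of several places or genes. STAR is named as aligner in the submitters' processing notes; its version is not given in the sources used here. The deposited exon length per gene, another column, was used for FPKM. No table column lacked a sample.

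Each table held 48709 genes, of which 48349 matched a symbol. Of the 151 genes named and tested, 36 share exon bases with another gene, and their values are uncertain, as are those of families with near-identical copies. Counts were analysed with edgeR 4.0.16 in R 4.3.3: filterByExpr, TMM, and the quasi-likelihood test with Benjamini-Hochberg adjustment over all genes tested. The steps were tested on simulated counts. The 95% intervals come from the fitted coefficient, its SE and the moderated degrees of freedom. Replicate pairs differed by a chi-square per degree of freedom of 51.3 to 201 in the 6 WT libraries, so none was merged. The labels number the replicates but do not say whether they are separate animals, or the same animal in both organs, so p-values measure only the spread between these samples, which may be technical.

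The gene lists, pairs and comparison were chosen with earlier results of these data known. The genes named are those of the pairs with at least 1 CPM in 1 organ, up to 6 called genes per direction (largest fold, no overlap of groups) and up to 6 balanced genes (most abundant) of each list with at least 5 CPM in 1 organ, the 10 largest folds per direction above 100 CPM without unnamed models and pseudogenes, the 10 most abundant balanced and 15 most abundant shared genes, the 10 smallest interaction p-values and the markers of the 2 organs; any other was picked once its values were known, and the text says so, apart from Ctcf, Xist, Cpt1b and the untested Epo, which serve as checks or partners. Some genes and promoter motifs under these rules are not reported here. Alternatives were DESeq2 1.42.0, limma-voom (limma 3.58.1), DESeq2 size factors or total counts in edgeR, looser and stricter filters, fits of 15 or 30 libraries, a fold minimum, other sizes and margins, a block by replicate number, and dropping each library in turn.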

Additional observations from a re-analysis of the deposited data

Results flagged for a closer look

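Both results below stand out because the organ difference in Ctcf+/- mice differed from that in WT mice by the interaction test of edgeR's quasi-likelihood fit over 12 libraries. Neither call held with a replicate block within genotype, where the interaction called 0 genes, and without WT liver replicate 2 it called 1. Fam19a5, which encodes a secreted protein of the TAFA family, had an organ difference that was -5.10 log2 units (SE 0.51, adjusted p = 0.000991) larger towards kidney in Ctcf+/- mice. Its level in liver was 2.17, 1.18 and 1.87 CPM in WT and 0.0495, 0.0191 and 0.0757 CPM in Ctcf+/- mice, and in kidney 6.22, 6.49 and 7.35 CPM and 6.19, 6.38 and 6.52 CPM, so the liver groups did not overlap and the kidney groups lay close together. Tmed6, which encodes a protein of vesicle traffic, had an organ difference that was 3.48 log2 units (SE 0.43, adjusted p = 0.00728) smaller in Ctcf+/- mice. Its level in liver was 0.0826, 0.049 and 0.045 CPM in WT and 0.842, 0.708 and 0.656 CPM in Ctcf+/- mice, and in kidney 10.3, 13.2 and 11.3 CPM and 13, 10.3 and 15.2 CPM. Fam19a5 lies at chr15:87625230-87759336 and Tmed6 at chr8:107061476-107065644 on GRCm38. The Ctcf+/- liver values of Fam19a5 and the WT liver values of Tmed6 lay near the floor of 3 counts. The sizes of both differences are therefore uncertain. Levels of the 2 genotypes were scaled in separate fits.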

How the results depend on the processing

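The counts called, 4-fold, balanced and shared stayed within 1.5 times of the values given under DESeq2, limma-voom, DESeq2 size factors, the looser filter, fits of 15 or 30 libraries and each library left out, where these were run. The exceptions follow. Demanding a difference beyond a log2 fold change of 1 left 6041 called genes. The 4-fold count became 2270 among genes with at least 10 counts in every library, a filter that removes genes absent from 1 organ, and 7889 at a log2 fold change of 1. Balanced genes fell to 3212 with total counts and to 1935 with a margin of 0.5. Shared genes numbered 252 when a log2 fold change of 1 over the other tissues was enough and 68 when 3 was required. The interaction called 52 genes in DESeq2, 0 with a replicate block within genotype in edgeR (774 at an unadjusted p under 0.05), and 1 to 6 when each library was left out: 4 without Ctcf+/- kidney replicate 1, 1 without WT liver replicate 2 and 6 without WT liver replicate 3. Total-count scaling alone reversed named genes, to -0.058 for Acsm1, -0.15 for Cpt1a, -0.34 for Aldh9a1, -0.38 for Hnf4a, -0.42 for Aass, -0.67 for Lamp2, -0.69 for Papss2, -0.71 for Chdh, -0.72 for Tmbim6, -0.81 for Kng2, -0.84 for Cyp2j5, -0.85 for Ehhadh, -0.92 for mt-Nd1, -0.98 for mt-Co1, -0.98 for Gnpat, -0.99 for Slc16a7 and -1.01 for Slc9a3r1. The cause of each of these changes in sign is the shift of all values by that scaling. No adjustment for a replicate block changed a count by over 1.5 times apart from the interaction: 11357 genes were called, 4791 4-fold, 6108 balanced, 117 shared and 4551 repeated in Ctcf+/- mice. Whether the numbers pair the libraries is unclear. By the rule used, an r over 0.1 for every pair, they do not (r of 0.028, 0.284 and 0.074 between same-numbered liver and kidney deviations), and liver replicates 1 and 3 did not correlate best with their own number. Yet replicate 2 was the extreme in the same direction in both organs for 12 of 12 clock genes, chosen after their values were seen. Folds against an organ at 0 counts are limited by the floor of 3 counts.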
